A study of Mus musculus with 38 samples.

Results

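Trim28 was targeted by CRISPR in the forebrain neurons of adult Stop-Cas9-GFP knock-in mice, and the RNA of the targeted nuclei was sequenced. The experiment holds 5 of the 38 samples of the series. They are the libraries of guide g3, guide g4, guide g13 and the co-injected guides g3, g4 and g13 (named g3g4g13 here), and 1 control library with a guide against the bacterial gene lacZ. In Stop-Cas9-GFP mice a stop cassette keeps Cas9-GFP silent until Cre removes it. AAV5 vectors carried the guide and a Cre-inducible nuclear reporter (H2B-RFP), and a further AAV carried Cre under the neuron-specific Synapsin promoter, so both Cas9 and the reporter depended on Cre in neurons. All 5 groups, the control included, received Cre, Cas9 and an intrastriatal injection of 1 µl. The vectors with a single guide were diluted to 30%, and those of the triple injection to 10% each. Animals were sacrificed after 2 months, and RFP+ nuclei were isolated by FACS. Their age at injection and sex are not given in the sources used here beyond adult.

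Each guide had 1 library, so the 4 guide libraries are different treatments of the same gene rather than repeats of one treatment, and values are given library by library. The single lacZ library has no spread of its own. The tests take the spread from the 4 guide libraries and assume that the control varies like them, and an exact permutation test over 5 libraries could not give a p below 0.2. Genes on chrX and chrY were left out. For comparison, values are given from 3 other experiments. In adult Cas9-GFP mice all cells carry Cas9, and the same guides were delivered with H2B-RFP under Synapsin (4 guide libraries, 1 lacZ). Adult Trim28-flox mice (+/− and +/+) were co-injected with AAV vectors for Cre or nuclear GFP under Synapsin (4 libraries labelled KO, 4 labelled control). GFP+ nuclei were isolated from them. The paper names the +/+ mice as the KO, and the labels do not give the genotype. Neural progenitor cells (NPCs) came from the forebrain of Rosa26-Cas9 knock-in embryos. They were transduced with lentiviral guides and sorted after expansion (6 guide cultures, 2 lacZ cultures). None of these experiments shares a control with the Stop-Cas9 libraries.

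Trim28 is a corepressor that KRAB zinc finger proteins bring to their DNA targets, many of which lie in endogenous retroviruses. It assembles the histone methyltransferase Setdb1, heterochromatin protein 1 and histone deacetylases, and the H3K9me3 laid down in this way silences the target. Endogenous retroviruses (ERVs) are remnants of retroviral infections of the germline. MMERVK10C and the intracisternal A particles (IAPs) are young mouse ERVs of the ERVK family.

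The guide sequences are shown because every value below depends on where they cut. Each is written 5′ to 3′ with the protospacer adjacent motif (PAM), which Cas9 needs beside its target, in capitals.

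g3: gcactccacacaatagctagTGG
g4: ggtccttgtgagcgttgagcTGG
g13: cgcactggttacacatgaccAGG
lacZ: tgcgaatacgcccacgcgatTGG

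In GRCm38 the Trim28 guides matched the reverse strand of the gene, which GENCODE places at chr7:12999114-13031035 on the forward strand. Guide g3 matched chr7:13025675-13025697 in exon 3 of the 17 exons of transcript Trim28-201. Guide g4 matched chr7:13027726-13027748 in exon 4, and guide g13 matched chr7:13029921-13029943 in exon 13. All 3 sites are coding, and the predicted cuts fall at 19.7%, 28.1% and 76.5% of the 2502 coding bases. The lacZ guide had no genomic site with 3 or fewer mismatches beside an NGG PAM. Guide g3 had 11 such sites with mismatches, guide g4 had 3 and guide g13 had 4. In all, 6 tested genes hold one of these sites (Adam22, Arpp21, Cux2, Fam19a2, Miga1 and Susd4). The 2 libraries that held the guide of the site were set against the 3 without it. They lay above the others for Cux2 and Susd4 (guide g3) and below them for Arpp21 (guide g13), and overlapped for the other 3 genes. In the Cas9-GFP libraries they overlapped for all 6. The share of all tested genes that separate in this way was not counted, so the 3 of 6 have no background to be read against. Library g3 also stood apart from the others, as given below. Differences between guides were not tested. The largest separation was that of Cux2, with 43.1, 24.8, 14.0 and 32.3 counts-per-million (CPM) in g3, g4, g13 and g3g4g13 and 19.3 in lacZ. The 4 guide libraries of Cux2 did not differ from lacZ beyond their spread (edgeR, unadjusted p = 0.222).

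Between 8790346 and 11437265 reads were counted in genes per library. Library g3 stood apart from the others. Its log2 CPM correlated with those of the other 4 libraries at r between 0.940 and 0.945, against 0.954 to 0.967 among the others, and it held fewer detected genes (18820 against 20803 to 21014) and more mitochondrial counts (3.38% against 1.30 to 1.76%). All pairs of libraries differed by far more than sampling noise. The nuclei carried the markers of striatal projection neurons, the main neurons at the injection site. All 20 markers on the list fixed for these cells passed the filter on low counts, with summed levels of 12990 to 15970 CPM in the guide libraries and 16500 CPM in lacZ. Microglial markers summed to 66.6 to 71.8 CPM and 71.3 CPM, with Trem2 at 0 counts in all 5 libraries.

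The Trim28 transcript itself was measured first. It stood at 107 CPM in g3, 132 in g4, 108 in g13 and 92.1 in g3g4g13, and at 109.7 in lacZ. The control thus lay in the middle of the guide libraries, and the log2 fold change was 0.00 (SE 0.23). Whether an allele was edited cannot be read from these counts, since a small insertion or deletion in an exon need not change how many reads a transcript yields. The paper assessed editing of this mouse line by other means. It reports efficient editing from amplicon sequencing of RFP+ nuclei and, from immunostaining, a robust loss of Trim28 protein in RFP+ cells. In the Cas9-GFP libraries the same guides gave 109, 97.6, 102 and 107 CPM against 149 in lacZ, a log2 fold change of −0.52 (SE 0.15, adjusted p = 0.365). The difference between the Stop-Cas9 and the Cas9-GFP effect was 0.53 on the log2 scale (SE 0.28, edgeR, unadjusted p = 0.0699), so it was not established. In NPCs the guide cultures held 38.4 to 76.6 CPM and the lacZ cultures 164 and 213 (log2 fold change −1.82, adjusted p = 0.0340). The 10 tested genes nearest to Trim28 were taken as 5 on each side of its midpoint. Of these, Zbtb45 lies within the Trim28 span on the reverse strand. None of the 10 was called, and neither was any other of the 15573 tested genes. The lowest unadjusted p among the 10 in edgeR was 0.0756, for the zinc finger gene Mzf1.

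The Trim28-flox libraries go against their labels. Those labelled control held 26.6 to 32.7 CPM of Trim28, and those labelled KO held 135 to 152 (log2 fold change 2.26, SE 0.10). For this experiment the paper reports that the Trim28 transcript was lost in the sorted GFP+ nuclei. It also reports that neurons of the KO lost Trim28 protein. The libraries are therefore called below the flox libraries with low Trim28 (labelled control) and with high Trim28 (labelled KO).

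Across genes, no gene was called in the Stop-Cas9 experiment: of 15573 genes with a mean of at least 10 counts, 0 (0%) passed an adjusted p under 0.05 together with a log2 fold change above 0.5 in edgeR. At an unadjusted p under 0.05 there were 408 genes, 326 higher and 82 lower in the guide libraries. The filter uses the mean over 5 libraries, 4 of them with guides, so a weak gene passes more easily when high in these. The 2 directions thus cannot be set against each other. DESeq2 called 1 gene, Fancd2. The median log2 fold change over all genes was 0.02 and the median standard error 0.37. By position alone, all 4 guide libraries lay above lacZ in 17.6% of the genes and below it in 17.2%. These shares are the background for the counts below.

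Fancd2 had the lowest p of all genes. It encodes the DNA repair protein that the Fanconi anaemia pathway ubiquitinates at interstrand crosslinks, and it lies at chr6:113531682-113597017 on the forward strand. Its level was 47.9 CPM in g3, 48.1 in g4, 47.2 in g13 and 60.4 in g3g4g13, against 13.6 in lacZ. Every guide library held at least 427 counts and the control 116, so the difference does not rest on a few reads. The log2 fold change was 1.90 (SE 0.30, unadjusted p = 1.17e-05, adjusted p = 0.182 in edgeR), and over the alternatives it stayed between 1.80 and 1.94. DESeq2 gave an adjusted p of 2.94e-05, and edgeR without a filter on low counts gave 4.07e-05.

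The same gene also lay above lacZ in all 4 guide libraries of the Cas9-GFP experiment. There it stood at 47.4, 25.3, 29.2 and 35.2 CPM against 11.2 in lacZ (log2 fold change 1.62, SE 0.36, adjusted p = 0.338). The 2 effects differed by 0.30 (SE 0.44, edgeR, unadjusted p = 0.510). In the flox experiment, which has 4 libraries on each side, Fancd2 was one of 5 genes called (0.0301% of those tested). The flox libraries with low Trim28 held 63.0, 65.0, 56.2 and 52.8 CPM, and those with high Trim28 held 24.9, 18.8, 27.5 and 20.6 (log2 fold change −1.37 for labelled KO over labelled control, SE 0.14, adjusted p = 0.00342). In all 3 adult experiments the groups did not overlap. In NPCs they did, at 15.1 to 48.1 CPM with Trim28 guides and 38.1 and 48.8 with lacZ (log2 fold change −0.21, SE 0.36). Fancd2 lies 454 kb from Gt(ROSA)26Sor, the locus that carries Cas9 in the knock-in lines. Of the 19 tested genes between them, 0 had an unadjusted p under 0.05 in edgeR. Over all genes 408 of 15573 did, so 0 among 19 is near the share over all genes. Whether the locus has a part in the Fancd2 values was not tested.

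**Figure D1:**
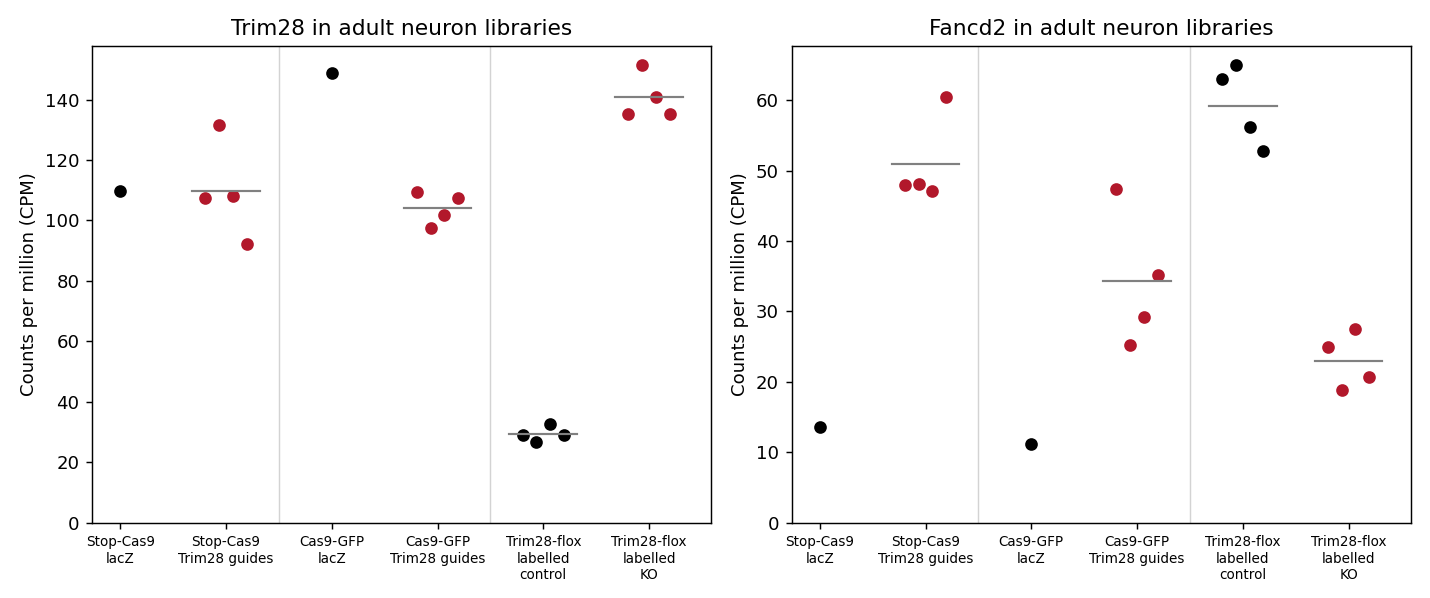
CPM (linear axes from 0) of Trim28 (left) and Fancd2 (right) in the libraries of the 3 adult neuron experiments. Each point is 1 library, black for lacZ or labelled control and red for Trim28 guides or labelled KO, and the line is the group mean. Fancd2 is at 13.6 in the Stop-Cas9 lacZ library and at 47.2 to 60.4 in the 4 guide libraries, while Trim28 in lacZ lies among the guide libraries.

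The other genes called in the flox libraries besides Trim28 itself, Theg, Mkrn3 and Vegfa, had no overlap between the guide libraries and lacZ in the Stop-Cas9 experiment either. Theg, which is expressed in testis, was at 13.3, 6.69, 7.51 and 16.1 CPM in the guide libraries and at 4.58 in lacZ (log2 fold change 1.25, SE 0.57, edgeR, unadjusted p = 0.0453). Mkrn3, an imprinted gene for a RING finger protein, was at 1.24, 3.15, 1.33 and 1.72 CPM against 0.939 (0.98, SE 1.12, edgeR, unadjusted p = 0.398). Vegfa, the vascular growth factor, lay below lacZ, at 60.7, 55.6, 63.6 and 66.8 CPM against 88.8 (−0.52, SE 0.22, edgeR, unadjusted p = 0.0284). Of the 5 genes called there, Trim28 thus overlapped lacZ. In the other 4, Fancd2 included, the guide libraries lay beyond lacZ on the side of the flox libraries with low Trim28. Over all genes 17.6% lay above and 17.2% below in this way. Mkrn3 rested on 12 to 32 counts against 8. In the flox libraries Theg held 65.8 to 112 CPM with low Trim28 and at most 11.7 with high Trim28 (log2 fold change −3.00 for labelled KO, adjusted p = 3.32e-05). Mkrn3 held 4.35 to 6.15 and at most 0.288 CPM, and Vegfa 62.5 to 84.0 and 115 to 148. In the Cas9-GFP libraries Theg was at 13.1, 10.6, 2.38 and 21.7 CPM against 2.56, so g13 lay just below the control. Mkrn3 was at 0 counts in the Cas9-GFP lacZ library, and at 8 to 33 counts with Trim28 guides.

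The NPC experiment called 28 genes (0.187%), 27 besides Trim28. In the Stop-Cas9 neurons 17 of the 27 did not pass the filter on low counts, a mean of at least 10 over the 5 libraries. Most genes did not pass it either: of 55298 annotated genes, 4184 of them on chrX and chrY, 15573 passed. The other 10 of the 27 passed the filter, and 12 of the 27 held at most 3 counts in each of the 5 libraries. Among these 12 are the F-box genes Fbxw16 and Fbxw19 and the vomeronasal receptors Vmn1r210, Vmn1r211 and Vmn1r213, all at 0 counts. Of the 10 tested, 4 lay above lacZ and 3 below it in all 4 guide libraries. Over all genes the shares were 17.6% and 17.2%, and 408 of 15573 had an unadjusted p under 0.05 in edgeR. Among the 10, only Olfr1349, an olfactory receptor gene, had such a p, with 20, 12, 27 and 37 counts against 0. In the Cas9-GFP libraries it held 12, 18, 21 and 8 counts against 3. Tcfl5, a transcription factor gene that was 4.07 higher on the log2 scale in NPCs, was at 8.61, 2.85, 2.76 and 4.35 CPM against 2.47 (edgeR, unadjusted p = 0.268). In the Cas9-GFP libraries Tcfl5 held 39, 28, 17 and 83 counts in g3, g4, g13 and g3g4g13 against 0 in lacZ. The flox libraries with low Trim28 held 11.3 to 16.6 CPM of it and those with high Trim28 1.94 to 7.33, and it was not called there (edgeR, adjusted p = 0.185).

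Abhd12b, which held at most 1 count in every NPC culture and was not tested there, shares 254 bases at its end with a full-length MMERVK10C element on chromosome 12. It was high in single libraries. In the Stop-Cas9 neurons 3 guide libraries held 1.15, 1.08 and 1.55 CPM, near the 0.704 of lacZ, and g3g4g13 held 17.7. In the Cas9-GFP animals the high library was another, g13 at 18.3 CPM, with 0.899 to 2.38 in the other guide libraries and 0.409 in lacZ.

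Genes at least 2-fold from the control in every guide library were then counted, on log2 CPM with a prior count of 2. There were 223 above lacZ (1.43% of the genes tested) and 23 below (0.148%). A low value in 1 library is easier to reach than in 4, so these counts cannot be set against each other either. Most of these genes were weakly expressed. The median mean count was 19.2 for the genes above, compared with 177.4 for all genes, and 45 of the 223 had 0 and 76 had 1 to 3 counts in lacZ. With a mean of at least 50 counts, 33 were above and 2 below. The libraries differed in how many genes each placed at least 2-fold from lacZ on its own, with 1137 above and 1174 below in g3, 1030 and 696 in g13 and 1130 and 679 in g3g4g13, and the fewest in g4. Without g3, 312 genes were at least 2-fold above lacZ in the other 3 guide libraries and 44 below.

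The 12 of the 33 that lay farthest from lacZ in their nearest guide library were taken as examples. Slc17a6, the vesicular glutamate transporter 2, was at 10.9, 3.84, 3.87 and 20.2 CPM, and lacZ held 3 counts of it (0.352 CPM). Slc9a9, an endosomal sodium-proton exchanger, was even across guides, at 11.5, 8.27, 10.1 and 7.89 CPM against 0.939 (log2 fold change 3.31, SE 0.65, edgeR, unadjusted p = 0.000124). Igfn1, an immunoglobulin-like and fibronectin domain gene, ranged from 44.4 CPM in g3 to 0.816 in g3g4g13, with 0 counts in lacZ. The guides thus spread widely for Igfn1 and Slc17a6 and lay close together for Slc9a9.

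The controls of the 2 mouse lines differed for Slc9a9. The Cas9-GFP lacZ library held 6.75 CPM, and its guide libraries 7.80 to 11.9, values close to those of the Stop-Cas9 guide libraries. The difference between the effects was 2.82 on the log2 scale (SE 0.71, edgeR, unadjusted p = 0.000834), and it did not pass adjustment (adjusted p = 1.00). Cadps2, which takes part in dense core vesicle release, was at 4.97, 5.41, 7.07 and 6.89 CPM against 0.939, and in Cas9-GFP at 7.28, 8.76, 3.99 and 3.33 against 1.53. Col12a1, a collagen, was at 4.21 to 11.8 CPM against 0.822, and Vxn, a neurogenesis regulator, at 6.17 to 34.8 against 2.00. The transcription factor genes Nr2f1 (4.33 to 8.07 against 1.41) and Npas3 (3.81 to 9.28 against 1.29) followed, with 1500009L16Rik (4.63 to 8.62 against 1.41), E230029C05Rik (5.52 to 8.07 against 2.00) and Gm26918 (3.83 to 9.17 against 1.41). Fancd2 was the most highly counted of the 12.

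By the same rule 2 genes lay below lacZ. Snhg5, a small nucleolar RNA host gene, was very even across the guides, at 16.0, 16.5, 15.8 and 14.9 CPM against 33.3 (log2 fold change −1.08, SE 0.29, edgeR, unadjusted p = 0.00207). In Cas9-GFP it was at 24.5, 19.4, 14.9 and 26.3 CPM with the guides and 18.9 with lacZ, so the groups overlapped there (difference between effects −1.24, SE 0.45, edgeR, unadjusted p = 0.0124). Gm17364 was at 2.58, 4.72, 5.08 and 4.26 CPM against 10.8.

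**Figure D2:**
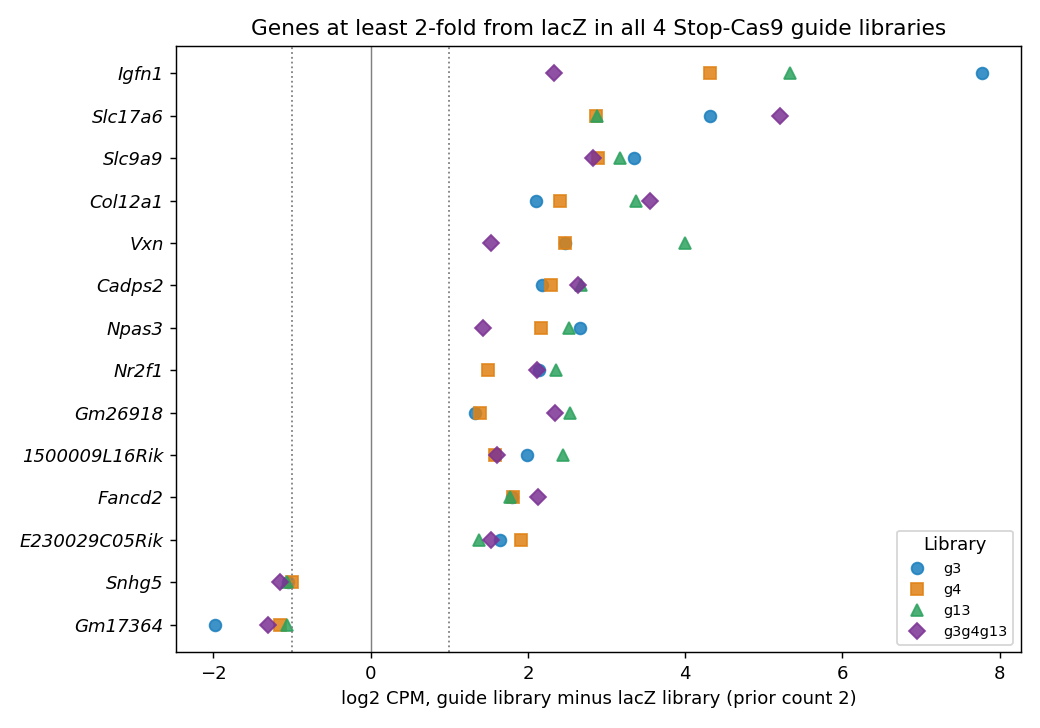
Difference in log2 CPM (prior count 2) between each guide library and the lacZ library for 12 of the 33 genes above lacZ and both genes below it by at least 2-fold in all 4 libraries, with a mean of at least 50 counts. The 12 are those farthest from lacZ in their nearest guide library. Dotted lines mark a 2-fold difference. The 4 symbols lie close together for Slc9a9, Fancd2 and Snhg5 and far apart for Igfn1 and Slc17a6.

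The Cas9-GFP libraries did not choose the 223 genes, but their own filter on low counts set which of them were tested there. Of the 170 that were tested in Cas9-GFP, all 4 guide libraries lay above that line's own lacZ in 61 (35.9%) and below it in 26 (15.3%). Over all genes the shares were 24.1% and 22.4%. The 2 sets are not matched. Weak genes pass the filter on the mean more easily when the guide libraries are high. The median mean count in Stop-Cas9 was 19.2 for the 223 and 177.4 for all genes. All 33 genes with a mean of at least 50 counts were tested in Cas9-GFP, where 12 (36.4%) lay above and 4 (12.1%) below. No gene was called for a difference between the Stop-Cas9 and the Cas9-GFP effect, 0 of 15732 (0%), with 682 at an unadjusted p under 0.05 in edgeR and 0 called by DESeq2.

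Gene lists were described by their counts and medians, beside the median of 0.02 and the shares of 17.6% and 17.2% over all genes. No member of any list was called, so members other than the 2 most abundant of a list are examples chosen after their values were seen. Markers of cortical excitatory neurons had the highest median of the lists with at least 10 tested members. Of 11 tested, 5 were above lacZ in all 4 libraries and 1 was below, and the median log2 fold change was 1.96. Their summed level was 396.5 CPM in g3, 299.4 in g4, 299.4 in g13 and 242.5 in g3g4g13. The lacZ sum was 255.7, so g3g4g13 lay below the control. Slc17a7, the vesicular glutamate transporter 1, was at 88.4, 40.2, 35.8 and 14.8 CPM against 7.28 (log2 fold change 2.62, SE 0.71, edgeR, unadjusted p = 0.00215). Slc30a3, the zinc transporter of glutamatergic vesicles, was at 4.30, 2.17, 1.44 and 1.90 against 0.117, which was 1 count. Library g3 had the highest and g3g4g13 the lowest value of Slc17a7. The 2 most highly counted markers on this list, Foxp2 and Tle4, are also expressed in striatum and were not higher. Foxp2 was at 97.9 to 126 CPM against 107, and Tle4 at 80.3 to 106 against 111. The median of the list in Cas9-GFP was 1.39. Without g3 it was 1.28 in the Stop-Cas9 neurons, again with 5 markers above lacZ and 1 below (over all genes 24.1% were then above and 23.2% below).

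Striatal projection neuron markers had a median below 0. Of 20 tested, 0 were above lacZ and 10 were below it in all 4 guide libraries, with a median of −0.19. The differences were small and none reached an unadjusted p under 0.05 in edgeR. Bcl11b, a transcription factor of striatal projection neurons, was at 190.0, 196, 237 and 215 against 257. The 2 most abundant, Pde10a and Adcy5, enzymes of cyclic nucleotide signalling, overlapped (3196 to 3946 CPM against 3921 and 1656 to 2657 against 2341). Drd1, the dopamine D1 receptor, was at 363, 651, 556 and 477 CPM against 651, so g4 equalled the control. Without g3, 1 of the 20 was above and 11 below, with a median of −0.12. In bulk RNA, fewer cells of a type and less RNA per cell cannot be told apart. The part that the cell makeup of the sorted nuclei has in the gene results was not tested.

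**Figure D3:**
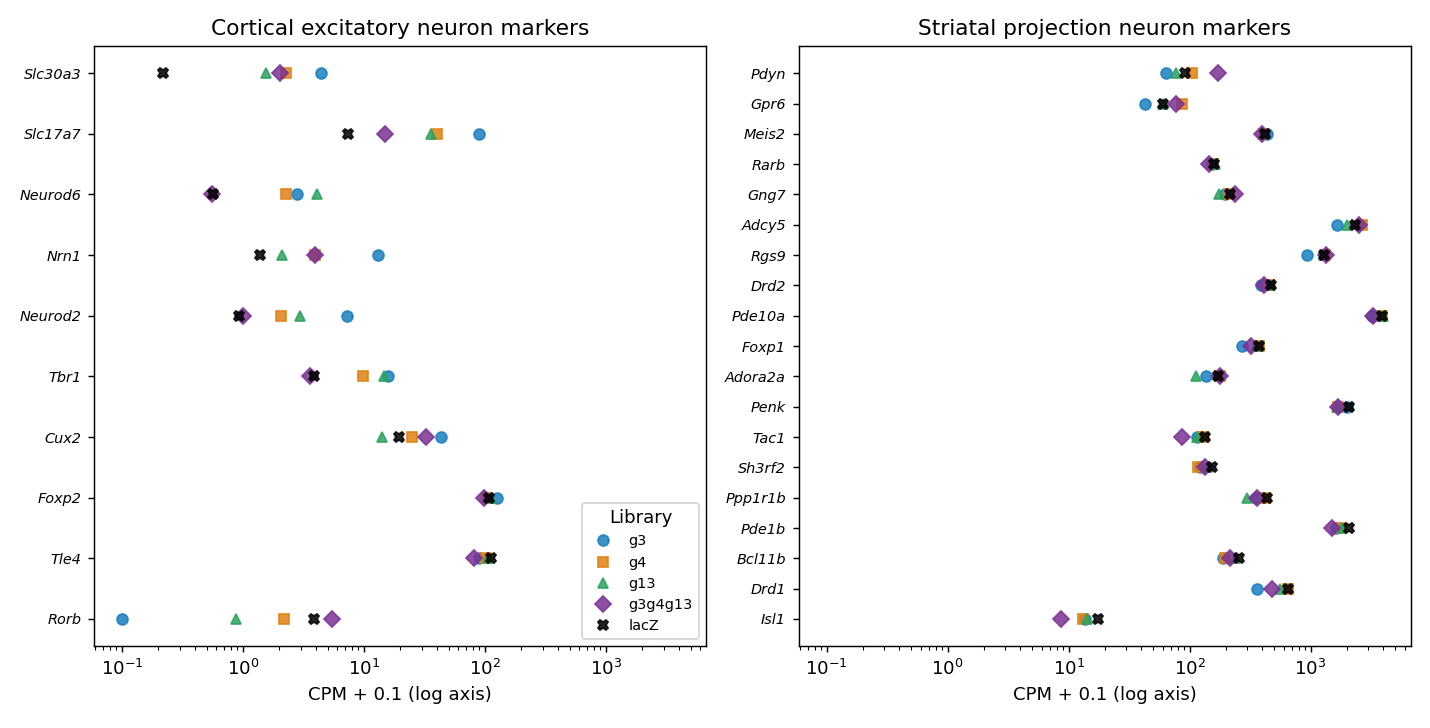
CPM plus 0.1 (log axes) of the tested cortical excitatory (left) and striatal projection (right) neuron markers, all but 2 of them shown, in the 5 libraries, 1 symbol per library. Slc17a7 in lacZ (7.28 CPM) is left of all 4 guide libraries (14.8 to 88.4), and for each striatal marker shown the symbols of the 5 libraries lie close together or overlap.

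Pan-neuronal genes were even, with 3 of 14 above and 3 below lacZ and sums of 8800 to 9298 CPM against 8780. Interneuron markers had 3 of 12 above and 3 below. Astrocyte markers (2 of 11 above, 1 below, median 0.13), oligodendrocyte markers (1 of 10 above, 2 below, median −0.11) and progenitors of the latter (2 of 3 above) held few counts. Their sums were 281 to 379 CPM against 290.2 for astrocytes and 143 to 201 against 204 for oligodendrocytes. Slc1a2, the astrocytic glutamate transporter, was at 159, 183, 234 and 209.6 CPM against 134 (log2 fold change 0.55, SE 0.24, edgeR, unadjusted p = 0.0374). Endothelial markers summed to 4.72 to 10.6 CPM against 3.99, with Cldn5 at 0 counts in all 5 libraries, and mural and fibroblast markers to 6.69 to 19.3, with the lacZ sum inside that range. Of 10 lymphocyte markers, 2 were tested (Cd4 and Cd52). Cd4 was at 79.9 to 107 CPM against 79.7, while the T cell genes Cd3d and Cd8a held 0 counts in all 5 libraries.

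Among the partners of Trim28, 4 of 30 lay above and 4 below lacZ, with a median of −0.03. Setdb1, its histone methyltransferase, was at 358, 272, 292 and 288 CPM against 299. Chd4, of the nucleosome remodelling complex, was at 429 to 506 against 488, and Dnmt3a, a DNA methyltransferase, at 418 to 482 against 463. Of the paralogues, Trim24 was at 61.5 to 68.7 CPM against 53.2 and Trim33 at 92.0 to 138 against 111. Trim66, a paralogue of testis and brain, was at 41.5, 43.5, 47.1 and 53.4 against 29.9 (log2 fold change 0.63, SE 0.27, edgeR, unadjusted p = 0.0319). It was also above lacZ in all 4 Cas9-GFP libraries (34.7 to 45.8 CPM against 21.3, log2 fold change 0.96). Zinc finger genes, named Zfp and a number, numbered 324 and divided evenly, with 52 above, 53 below and a median of 0.02. The most abundant, Zfp445, which takes part in imprint maintenance, was at 625 to 883 CPM against 804.

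Imprinted genes, several of which are held in check through Zfp57 and Trim28, had 11 of 37 tested above lacZ and 3 below. Of the 37, 6 had an unadjusted p under 0.05 in edgeR, against 408 of 15573 over all genes. The median of the imprinted genes was 0.13. The lowest p was that of Kcnk9, a maternally expressed potassium channel, at 155, 97.6, 135 and 139 CPM against 69.3 (log2 fold change 0.93, SE 0.27, edgeR, unadjusted p = 0.00317). In Cas9-GFP it was at 99.1, 158, 115 and 63.3 CPM against 54.5 (log2 fold change 1.00). In none of the other 5 did all Cas9-GFP guide libraries lie above their lacZ. Gnas (61.6 to 90.6 CPM against 45.3), Nnat (28.7 to 40.7 against 21.7) and Plagl1 (26.9 to 40.0 against 20.5) had Cas9-GFP log2 fold changes of −0.18, −0.59 and −0.11. Zim1 was high in the g13 and g3g4g13 libraries alone (34.1 and 30.6 CPM, with 9.09 and 7.68 in g3 and g4 and 6.93 in lacZ). Calcr showed the same 2 libraries high (5.41 and 7.89 CPM, with 0.956 and 0.886 in g3 and g4), over 3 counts in lacZ. The most highly counted imprinted genes, Meg3 and Peg3, were at 4519 to 5724 CPM against 5144 and at 1043 to 1434 against 1134.

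Clustered protocadherins, cell surface proteins whose promoters are chosen in each neuron, had 16 of 55 above lacZ and 2 below and a median of 0.41. The lowest p was that of Pcdhga7, with 28.2, 35.0, 32.9 and 39.0 CPM against 21.4 (log2 fold change 0.66, SE 0.30, edgeR, unadjusted p = 0.0410). The 2 most abundant, Pcdhgc5 and Pcdhac2, were at 62.8 to 125 CPM against 84.3 and at 25.8 to 46.4 against 26.7. The summed level of the family was 546 CPM in g3, 909 in g4, 751 in g13 and 882 in g3g4g13, against 619.5 in lacZ, so g3 lay below the control. The count changed with that library. Without g3, 33 of 54 protocadherins (61.1%) were above lacZ in the other 3 guide libraries and 2 (3.70%) below. Over all genes the shares were then 24.1% and 23.2%, and 0 protocadherins were called. The median was then 0.46. In Cas9-GFP it was 0.13.

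Genes of the response to foreign nucleic acid were on 2 lists. Of 33 interferon-stimulated genes, 19 did not pass the filter on low counts. Of the 14 tested, 3 lay above and 3 below lacZ, and none was at an unadjusted p under 0.05 in edgeR. Stat2, a transducer of interferon signals, was at 109.8 to 182 CPM against 114, and Irf9, its partner, at 23.3 to 32.8 against 30.2. Of the nucleic acid sensors 10 were tested, 2 above lacZ and 0 below. Adar, which edits double-stranded RNA, was at 281 to 351 CPM against 325, and Tlr3, a receptor for double-stranded RNA, at 2.68, 3.94, 3.20 and 4.08 against 0.939 (edgeR, unadjusted p = 0.0544). Targets of p53 and DNA damage had 0 of 16 above and 6 below and a median of −0.07. Mdm2 was at 118 to 151 CPM against 128. Activity-induced genes had 1 of 14 above and 3 below, with Homer1 at 94.1 to 128 CPM against 149.9 and Egr1 at 83.5 to 177 against 136.

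**Figure D4:**
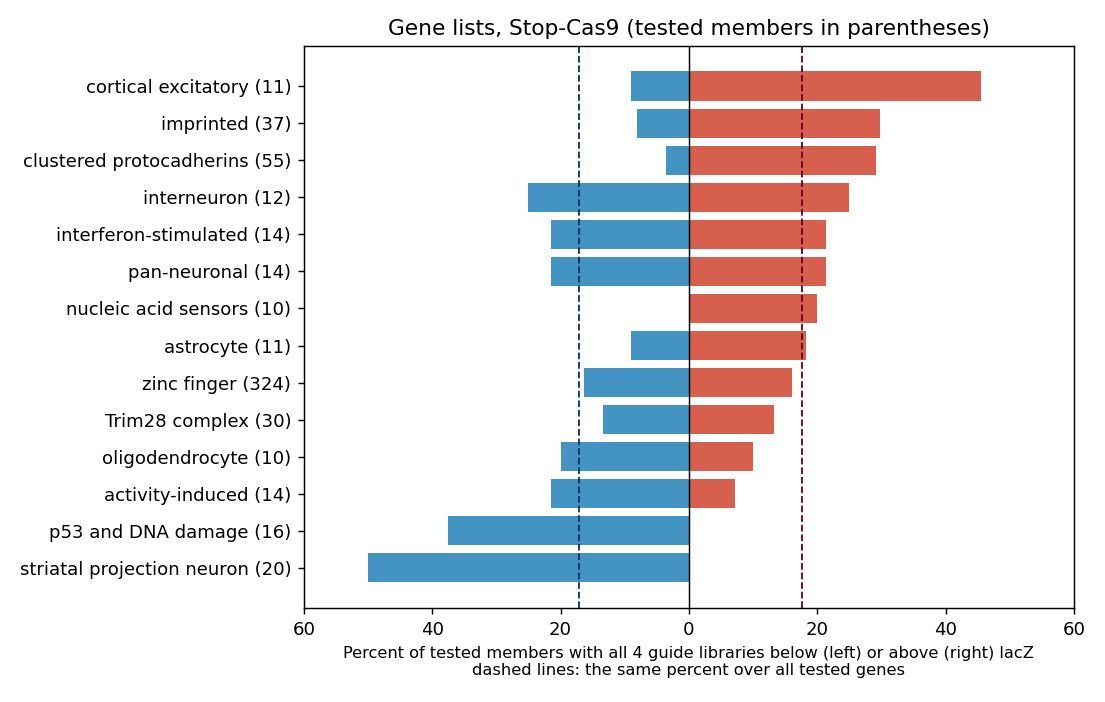
Percent of the tested members of each of the 14 gene lists with at least 10 tested members that lay below lacZ (left, blue) or above it (right, red) in all 4 guide libraries, with the number tested in parentheses. Dashed lines give the same percent over all tested genes, 17.2 and 17.6. Of these lists, cortical excitatory markers extend farthest to the right and striatal projection neuron markers farthest to the left.

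For transposable elements, 894 subfamilies were tested and 0 (0%) were called in edgeR, with 23 at an unadjusted p under 0.05 (16 higher, 7 lower) and 0 called by DESeq2. All 4 guide libraries lay above lacZ in 17.7% of the subfamilies and below it in 19.6%. MMERVK10C-int, the internal part of the MMERVK10C provirus, was at 2442, 2505, 2391 and 2153 CPM (here of all TE counts) in g3, g4, g13 and g3g4g13, against 1769 in lacZ. All guide libraries were above the control, by a log2 fold change of 0.42 (SE 0.15, unadjusted p = 0.0172, adjusted p = 0.996 in edgeR). The Cas9-GFP libraries gave 2021, 2041, 2241 and 2089 against 1562, a log2 fold change of 0.43 (SE 0.13, unadjusted p = 0.00394, adjusted p = 0.236). The difference between the effects was −0.01 (SE 0.19). In NPCs, where 8 subfamilies were called (1.04%), the same subfamily went from 476 and 738 with lacZ to 6749.7 to 12042 with Trim28 guides (log2 fold change 3.90, SE 0.28, adjusted p = 3.34e-05). In the flox libraries the log2 fold change was 0.01 (SE 0.15).

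The LTR of this provirus, RLTR10C, was not higher in the Stop-Cas9 neurons, at 186, 242, 165 and 203 against 203 (log2 fold change −0.03, SE 0.27, compared with 2.53 in NPCs). IAP1-MM_I-int, an IAP subfamily that was also called in NPCs (3.56), was at 8.76, 6.65, 16.8 and 17.5 against 27.2, so all 4 guide libraries were below the control, on 8 to 29 counts. IAPEz-int, the most abundant ERVK subfamily, was at 13709.9 to 17019 against 16368 (−0.14, SE 0.13). ETnERV-int, MMETn-int and MERVL-int lay between −0.18 and 0.02. Of the young LINE-1 subfamilies, L1Md_A was at 8270.3 to 11214 against 9601 (log2 fold change 0.02, SE 0.18), with 0.02 for L1Md_T and 0.04 for L1Md_F2, and the SINEs B1_Mm and B2_Mm1a were at −0.09 and 0.01.

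Over whole families, ERVK had 56 of 248 subfamilies above lacZ and 38 below, ERV1 24 of 90 above and 9 below, L1 12 of 129 above and 22 below and Alu (the B1 elements of mouse) 1 of 16 above and 11 below. The summed levels overlapped for ERVK (69895 to 77521 against 73567) and L1 (173389 to 211715 against 191485). For ERV1 every guide library was above the control (17145 to 19932 against 16944). The 5 subfamilies with the lowest p were chosen after their values were seen. Of these, RMER17A-int was at 112, 70.6, 59.7 and 86.0 against 21.6 (log2 fold change 1.92, SE 0.50, edgeR, unadjusted p = 0.00293), and RLTR4_Mm, an ERV1 element, at 787, 642, 413 and 689 against 319 (0.99, SE 0.31). In both the Cas9-GFP control was higher than the Stop-Cas9 control, at 54.0 and 575, and its guide libraries spanned 56.7 to 64.6 and 386 to 583. RMER10A was at 1148 to 1393 against 841, and ORR1A0-int (907 to 1129 against 1457) and MTA_Mm-int (2925 to 3499 against 4161) lay below lacZ. In edgeR no subfamily was called for a difference between the 2 lines, 0 of 881 (0%), with 66 at an unadjusted p under 0.05, and DESeq2 called 1, RLTR22_Mur (−1.91 on the log2 scale).

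**Figure D5:**
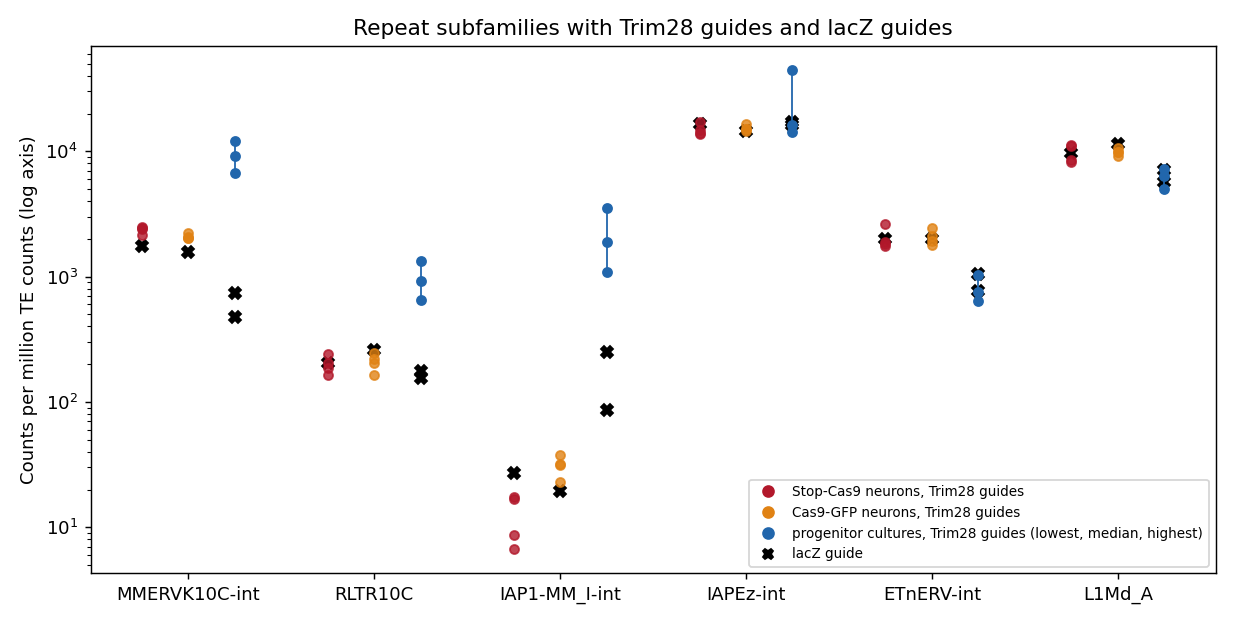
CPM, of all TE counts (log axis), of 6 repeat subfamilies in Stop-Cas9 neurons (red), Cas9-GFP neurons (orange) and NPC cultures (blue, lowest, median and highest of 6), with lacZ libraries as black crosses. MMERVK10C-int with Trim28 guides is 2153 to 2505 against 1769 in Stop-Cas9 neurons and 6749.7 to 12042 against 476 and 738 in NPCs.

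At the level of individual TE copies, counted from uniquely mapped reads and scaled with the genes, 0 of 45305 copies (0%) were called by edgeR and by DESeq2, and 1259 had an unadjusted p under 0.05 in edgeR, 1155 of them higher. As for genes, the filter on the mean lets weak copies pass more easily when high in the guide libraries, so the directions cannot be set against each other. All 4 guide libraries lay above lacZ in 19.8% of the copies and below it in 15.1%, and the median log2 fold change was 0.17. ERVK copies stood at 753 of 3396 above and 427 below (median 0.26), close to L1 copies with 1531 of 7274 above and 850 below (0.26).

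The lowest p belonged to neighbouring copies of unlike kinds inside an intron of Armc8 on chromosome 9. An Lx5b LINE, an RLTR11A LTR and a B2_Mm2 SINE cover chr9:99539528-99540699 side by side. Together they held 141 counts in g3, 157 in g4, 168 in g13 and 157 in g3g4g13, and 0 in lacZ, where 3 counts would be 0.355 CPM. A further Lx5b copy beside them held 22 to 39 counts and 0. In the Cas9-GFP libraries the block held 6 counts in g3 and 0 in each of the other guide libraries and in lacZ. Armc8 itself was at 142, 117, 151 and 111 CPM against 104 (log2 fold change 0.33, SE 0.24). In all, 11 copies had 0 counts in lacZ and at least 20 in every guide library, and 0 copies had 0 counts in every guide library and at least 20 in lacZ. A 0 in 1 library is easier to reach than a 0 in 4, so these counts cannot be set against each other. Of the 11, 4 are the Armc8 copies.

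Full-length MMERVK10C elements, of which 289 lie on the autosomes, summed to 118, 116, 157 and 141 CPM in g3, g4, g13 and g3g4g13, against 109 in lacZ. The mean difference was 0.28 on the log2 scale (SD 0.21 over the 4 guide libraries). A single element lying antisense in Gstz1, MMERVK10C-int_dup2495, held 25.9 to 38.5% of the sums. Without it the libraries were at 83.5, 84.8, 116 and 86.7 against 79.7. Between 30 and 58 of the 289 elements had any count in a library. In NPCs the sums were 93.0 to 159 with Trim28 guides and 12.4 and 17.4 with lacZ, and 51.5 to 64.9% of the former came from 1 element, MMERVK10C-int_dup97 on chromosome 1. That element held 501 to 1875 counts in the NPC guide cultures and 2 and 14 with lacZ. In the Stop-Cas9 neurons it held 26, 20, 41 and 17 counts against 12.

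Of the 13 elements with a mean of at least 10 counts, 6 lay above lacZ in all 4 guide libraries and 1 below. Over all tested copies 19.8% lay above and 15.1% below. Of the 6, MMERVK10C-int_dup2157, dup2571 and dup1571 held 1, 0 and 0 counts in lacZ. They held 3 to 25, 4 to 21 and 7 to 20 in the guide libraries, which brought them to that mean. One of the 6, chosen after its values were seen, was MMERVK10C-int_dup1355 at chr7:18396778-18402789 on the reverse strand. It held 68, 73, 89 and 97 counts (6.36, 7.31, 9.69 and 8.90 CPM) against 20 (2.36). In the Cas9-GFP libraries it held 61, 62, 52 and 55 counts against 6. The test on the copy within it gave a log2 fold change of 1.37 (SE 0.62, unadjusted p = 0.0488 in edgeR). The annotated gene Gm45104 overlaps it on the same strand, so their reads are partly the same, and was at 5.64, 3.94, 6.19 and 6.89 CPM against 2.35, and in Cas9-GFP at 3.97 to 4.31 CPM against 0 counts. In the flox libraries the groups overlapped, at 1.87 to 4.79 CPM with low Trim28 and 1.26 to 4.10 with high Trim28, and NPC guide cultures held 3 to 21 counts against 2 and 2.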

How the data were processed

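Polyadenylated nuclear RNA was prepared with a stranded kit and sequenced in pairs. The authors aligned reads to GRCm38.p6 with STAR 2.6.0, counted uniquely mapped reads with featureCounts (Subread 1.6.3), and deposited raw read counts per gene, TE copy and full-length MMERVK10C element. The TE subfamily values that the authors deposited are expected counts from TEtranscripts, which shares multimapped reads among copies, and were rounded here to whole numbers. The copy table has 12 value columns beyond those used here, 6 of which match no sample.

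Libraries were grouped by their labels. Counts were tested with edgeR 4.0.16 (TMM, quasi-likelihood test) in R 4.3.3 on rows with a mean of at least 10 counts. Calls needed a Benjamini-Hochberg adjusted p under 0.05 and an absolute log2 fold change above 0.5. CPM are scaled by TMM, TE copies by the factors of genes, and full-length elements by gene totals. The standard error is the log2 fold change divided by the square root of F. P-values rest on the spread between these libraries, and floors cover counting error only. The guides were matched to 21 chromosomes with Python 3.11.15. The procedure was tested on simulated counts. Alternatives were DESeq2 1.42.0, other filters, scalings and counts, and leaving out each library.

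Named by rule were Trim28, up to 12 genes per direction at least 2-fold from lacZ in all guide libraries (mean of at least 50 counts, ordered by the smallest library difference), and called members and the 2 most abundant members of each list. The 5 nearest tested genes on each side of the Trim28 midpoint were also taken by rule. Genes called in the flox or NPC libraries are named as such. Gene lists and the libraries compared were chosen with earlier results of these data known. The values of 2 list members, which count in the lists, are not reported here.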

Additional observations from a re-analysis of the deposited data

Results flagged for a closer look

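Among 110 values checked for a guide library far from the other 3, 7 stood out by Dixon's criterion, and chance gives about 1 in 20. Library g3 was high for Igfn1 (44.4 CPM, the others 0.816 to 7.95), for Samhd1, a nucleotide phosphohydrolase that limits retroviruses (70.3, the others 42.3 to 43.3, lacZ 49.8), and for Plk2, a p53-responsive kinase (379, the others 301 to 310, lacZ 398). The g3g4g13 library was high for Fancd2 (60.4, the others 47.2 to 48.1), for Abhd12b (17.7, the others 1.08 to 1.55) and for the ERVL subfamily RMER10A (1390 CPM of all TE counts, the others 1150 to 1170). Library g13 was high for the summed pan-neuronal markers (9300 CPM, the others 8800 to 8880).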

How the results depend on the processing

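With 1 control, every difference also holds whatever sets that library apart, and this cannot be told apart from the guides. The number of genes called was 0 with other size factors, with filterByExpr, with the spread of 10 libraries, with chrX and chrY kept and without each guide library in turn (0 to 0). It was 12 without a filter on low counts (9 higher, among them Fancd2, Slc17a7, Slc17a6, Slc9a9, Vxn and Igfn1, and 3 lower, Col6a4, Abhd14a and Id4), 1 with DESeq2 (Fancd2), and 1 with TEtranscripts gene counts (ENSMUSG00000098377.9, which the files pair with no symbol, 111 to 164 counts against 0). Calls among subfamilies were 0 under every alternative, and among copies 3 with filterByExpr (Lx8_dup24241, Lx5b_dup3705 and RLTR11A_dup1326). The Trim28 log2 fold change of 0.00 changed sign with filterByExpr (−0.0034), without a filter (−0.00057) and with TEtranscripts counts (−0.034), and ranged from −0.098 without g4 to 0.074 as libraries were left out. Genes at least 2-fold from lacZ numbered 246 in all, 34 at a mean of at least 50 counts with the scaling recomputed, 312 with a prior count of 0.5, and 339 to 379 with 1 guide library left out (373 without g13, 379 without g4). The DESeq2 test of the difference between lines called 1 subfamily, RLTR22_Mur (−1.91, adjusted p = 0.0460). Libraries with the same guide in the 2 lines deviated together at r between −0.077 and 0.027 over genes, so they share only a guide. With the guide as a replicate block 0 genes and 0 subfamilies were called for that difference. The cause of these changes was not tested. At these depths genes under about 10 counts were not assessed.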
